A study of Mus musculus with 14 samples.

Results

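The 43 type I interferon-stimulated genes described here were taken from a list of symbols grouped by role, and each symbol was matched to 1 Ensembl gene of the GENCODE M21 annotation of mm10. All 43 matched, out of 55536 Ensembl genes in the count table, and all 43 passed the filter on low counts that left 38070 genes for testing. The list and its groups were made with earlier results of these data known, and the rule itself uses no measured value. Poly(A) RNA from the hippocampus, the brain region of spatial and contextual memory, was sequenced from 14 mice at 10 months of age. The study's methods state that mice were perfused before the hippocampus was taken.

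The 4 groups were all on a C57BL/6 background. MRL mice (n = 4) were B6.MRL-Faslpr/J, a lupus-prone strain homozygous for the lpr allele of the death receptor gene Fas. MRL-IRAK4-KD mice (n = 4) carried the same allele and had been crossed with mice whose IRAK4 is kinase-dead. IRAK4-KD mice (n = 3) had the kinase-dead IRAK4 without lpr, and C57BL6/J mice (n = 3) carried neither. Both mutations were present in every cell of the animal, so values from the hippocampus do not separate its own cells from signals of the periphery. Each library came from 1 mouse, and p-values measure the spread between these 14 mice.

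Type I interferons bind a receptor of the subunits IFNAR1 and IFNAR2, whose kinases JAK1 and TYK2 phosphorylate STAT2. A complex that holds STAT2 and IRF9 then enters the nucleus and binds interferon-stimulated response elements, which switches on a set of antiviral genes that serves as the readout of interferon exposure. IRAK4 is the kinase that relays signals from Toll-like receptors and interleukin-1 receptors, and the receptors TLR7 and TLR9 use it to induce type I interferons in response to nucleic acids, which lupus autoantibodies bind.

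The response element is visible in the reference sequence before several of these genes, which is why 5 stretches are printed: they come from a ubiquitin-like modifier, a sensor, a pair of Ifit genes and a subunit of the transcription factor itself. The stretches are from RefSeq (GRCm38.p6), cover the 250 bases before the start site and are written 5′ to 3′ on the gene's strand. Capitals mark each match to GAAANNGAAA, the core of the element or to its reverse complement.
Isg15 (chr4:156200819-156201068, minus strand): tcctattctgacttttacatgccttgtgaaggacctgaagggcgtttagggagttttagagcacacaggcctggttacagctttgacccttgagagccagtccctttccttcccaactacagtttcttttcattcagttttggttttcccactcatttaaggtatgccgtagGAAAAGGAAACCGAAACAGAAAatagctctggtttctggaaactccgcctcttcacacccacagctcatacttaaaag
Ddx60 (chr8:61927837-61928086, plus strand): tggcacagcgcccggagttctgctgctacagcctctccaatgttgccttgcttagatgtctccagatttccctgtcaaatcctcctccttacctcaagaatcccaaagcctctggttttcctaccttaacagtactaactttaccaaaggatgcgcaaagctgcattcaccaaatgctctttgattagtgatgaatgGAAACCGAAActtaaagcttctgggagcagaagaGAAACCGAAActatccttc
Ifit1 (chr19:34640639-34640888, plus strand): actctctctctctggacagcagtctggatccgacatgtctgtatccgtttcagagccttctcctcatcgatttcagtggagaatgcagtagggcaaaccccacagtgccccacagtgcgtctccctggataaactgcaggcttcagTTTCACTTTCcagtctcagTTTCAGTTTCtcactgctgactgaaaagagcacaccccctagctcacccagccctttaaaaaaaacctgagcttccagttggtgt
Ifit3 (chr19:34583279-34583528, plus strand): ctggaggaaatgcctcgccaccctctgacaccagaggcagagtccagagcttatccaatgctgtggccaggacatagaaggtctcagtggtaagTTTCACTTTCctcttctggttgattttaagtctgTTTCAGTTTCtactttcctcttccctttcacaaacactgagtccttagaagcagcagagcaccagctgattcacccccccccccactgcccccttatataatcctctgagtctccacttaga
Stat2 (chr10:128270248-128270497, plus strand): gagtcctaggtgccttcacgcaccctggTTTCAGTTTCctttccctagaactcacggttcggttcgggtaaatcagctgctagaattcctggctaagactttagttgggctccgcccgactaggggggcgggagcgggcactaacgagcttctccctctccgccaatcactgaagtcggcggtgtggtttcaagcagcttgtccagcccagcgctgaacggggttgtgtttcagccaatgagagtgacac

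Isg15 held 3 matches that overlapped in 1 run of capitals, beginning 78, 72 and 66 bases before the start site. Ddx60 held 2, beginning 53 and 19 bases before it, both in the direction of the gene. Ifit1 held 2 on the opposite strand, beginning 104 and 85 bases before the start site, and Ifit3 held 2, also on the opposite strand, at 156 and 122 bases. Stat2 held 1, at 222 bases. Of the 31 interferon-stimulated genes with a promoter in the RefSeq table, 14 (45.2%) held a match on either strand within the 300 bases from 250 before to 50 after a start site, against 1079 of 27025 genes (3.99%). A match is a description of letters in the reference and not a measured binding site, and the DNA of these mice was not read here.

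All 43 genes were detected in every library. Levels are given as CPM, the count relative to the library size after scaling by TMM factors, and comparisons between genes as CPM per kilobase of exon. By that measure the 3 genes with the highest level in C57BL6/J hippocampus were Ifi27 at 17.9 CPM per kilobase, Adar, the RNA-editing enzyme, at 17.5, and Ifit3 at 5.19. The lowest were Mx1 at 0.0604, Zbp1 at 0.0412 and Oas3 at 0.0187 CPM per kilobase. The mutation state of IRAK4 cannot be checked from these counts, since a kinase-dead protein is made from a near-normal transcript: Irak4 lay between 1.54 and 2.72 CPM in all 14 libraries.

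Libraries that stood apart are named here, since several results rest on them. Total counts ran from 279941472 to 572398312 per library. The library of MRL-IRAK4-KD replicate 4 scored 257 on the first principal component, which held 23.5% of the variance, against -40.9 to 7.35 for the other 13, and its choroid plexus markers summed to 7953 CPM against at most 1923 elsewhere. The library labelled IRAK4-KD replicate 3 went against its label: it had 0 counts of the full-length Fas transcript and 514 of a short one, as the 8 lpr libraries had 0 and 268 to 964, whereas the other 5 libraries without lpr had 345 to 584 and 0 to 7. Its striatum and thalamus markers summed to 568 CPM against 164 to 283 in the other libraries. The 12 markers of hippocampal neurons were detected in every library.

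**Figure D1:**
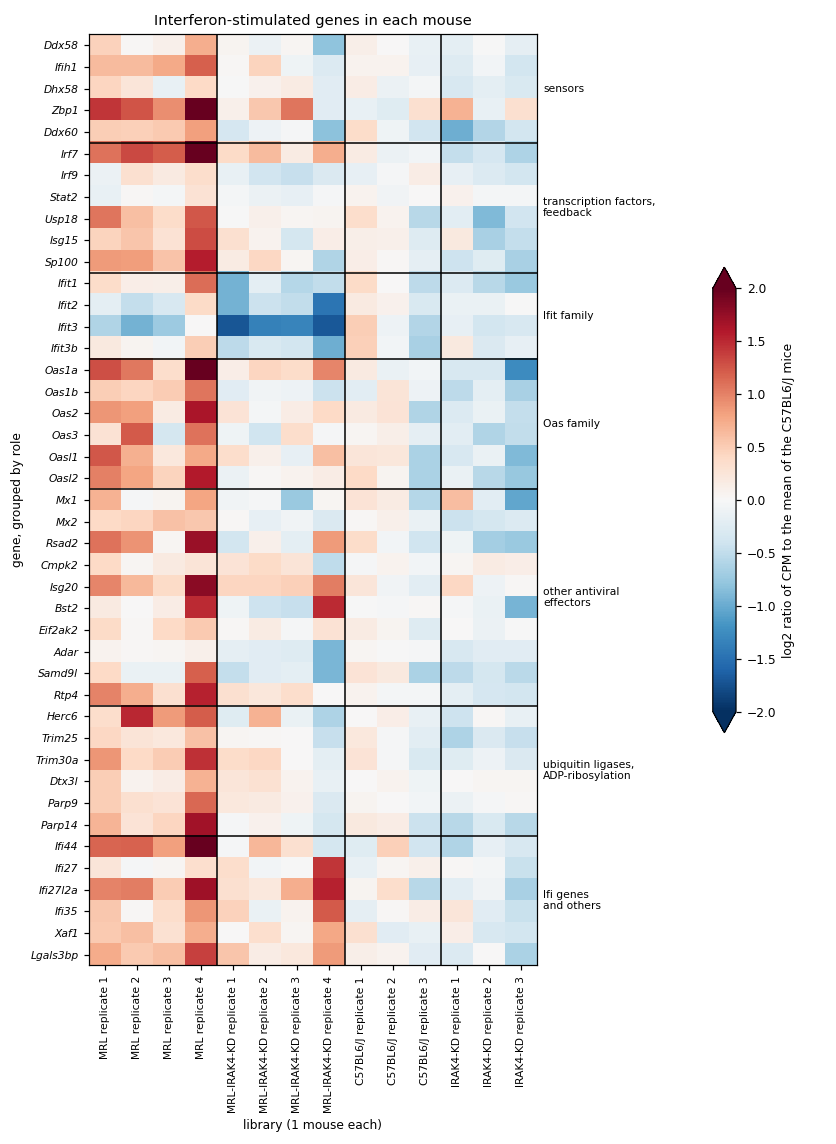
Log2 ratio of the CPM of each of the 43 genes (vertical axis, grouped by role) in each of the 14 libraries (horizontal axis) to the mean of the 3 C57BL6/J mice, with colour limits at -2 and 2. The 4 MRL columns on the left are mostly red, MRL replicate 4 the deepest, and the Ifit genes are blue in the MRL-IRAK4-KD columns.

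Setting MRL beside MRL-IRAK4-KD mice asks what the kinase-dead IRAK4 changes on the lpr background, and 41 of the 43 genes had a higher mean in MRL mice. The median log2 fold change was 0.72 (quartiles 0.40 to 0.96), against 0.0023 over all 38070 genes tested. With edgeR's quasi-likelihood test, 29 of the 43 were higher at unadjusted p below 0.05, where 5.14% of all genes were, and 0 were lower, where 6.23% of all genes were. None passed a Benjamini-Hochberg adjusted p of 0.05 with edgeR (lowest adjusted p = 0.246), a level that 0.0972% of all genes passed. DESeq2 called 13 of the 43 at that level and limma-voom with quality weights called 5. The share of all genes that these tools called is not given here, so their counts have no background beside them. For 18 genes each of the 4 MRL values lay above each of the 4 MRL-IRAK4-KD values (3.13% of all genes), and for 0 genes each lay below (2.14% of all genes). In bulk tissue, fewer cells of a type and less RNA per cell cannot be told apart.

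MRL replicate 4 had the highest value of the 14 libraries for 32 of the genes. The median log2 ratio of the 43 genes to the C57BL6/J mean was 1.11 in that mouse, and 0.30, 0.43 and 0.50 in the other 3 MRL mice. It lay between -0.20 and 0.08 in the MRL-IRAK4-KD mice, between -0.17 and 0.14 in the C57BL6/J mice and between -0.37 and -0.20 in the IRAK4-KD mice. The 4 MRL mice were thus above the other 10 libraries, by a margin that was small for MRL replicate 3. Without MRL replicate 4, 21 of the 29 genes were still higher at unadjusted p below 0.05 with edgeR, and the median log2 fold change was 0.52. The 8 genes that no longer passed were Ddx58, Ifit2, Isg15, Oas1a, Oas2, Oas3, Rsad2 and Samd9l. Without MRL-IRAK4-KD replicate 4 the count was 34 of the 43, and without both libraries, an alternative chosen after seeing the data, it was 19.

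Markers of other cells moved in the same comparison. Endothelial markers summed to between 226 and 380 CPM in MRL mice and between 155 and 196 CPM in MRL-IRAK4-KD mice, and 8 of the 10 were higher at unadjusted p below 0.05 with edgeR. Blood cell markers summed to between 85.4 and 376 CPM in MRL mice against 53.7 to 196, with 8 of 10 higher. Microglial markers summed to between 452 and 580 CPM against 427 to 463, with 3 of 12 higher, and border macrophage markers to between 23.0 and 37.6 against 20.4 to 29.9, with 0 of 8 higher at p below 0.05 and 6 of 8 higher in mean. Lymphocyte markers summed to between 4.90 and 8.48 CPM against 2.69 to 5.96, with 0 of 13 higher at p below 0.05, and Cd3d, Ms4a1, Nkg7 and Gzma were at 0 counts in at least 1 library. Astrocyte markers had 0 of 10 higher and 1 lower, oligodendrocyte markers 0 of 10 in either direction, markers of meninges and fibroblasts 0 of 12 in either direction, and hippocampal neuron markers 4 of 12 lower. Choroid plexus markers summed to between 76.8 and 1722 CPM in MRL mice against 168 to 7953, with 1 of 12 lower at p below 0.05 and a median log2 change of -0.80, and markers of striatum and thalamus had 2 of 12 higher. Without MRL-IRAK4-KD replicate 4 the microglial count was 8 of 12 higher, the hippocampal neuron count 2 of 12 lower and the choroid plexus median -0.12. The part of these cell types in the levels of the interferon-stimulated genes was not tested.

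**Figure D2:**
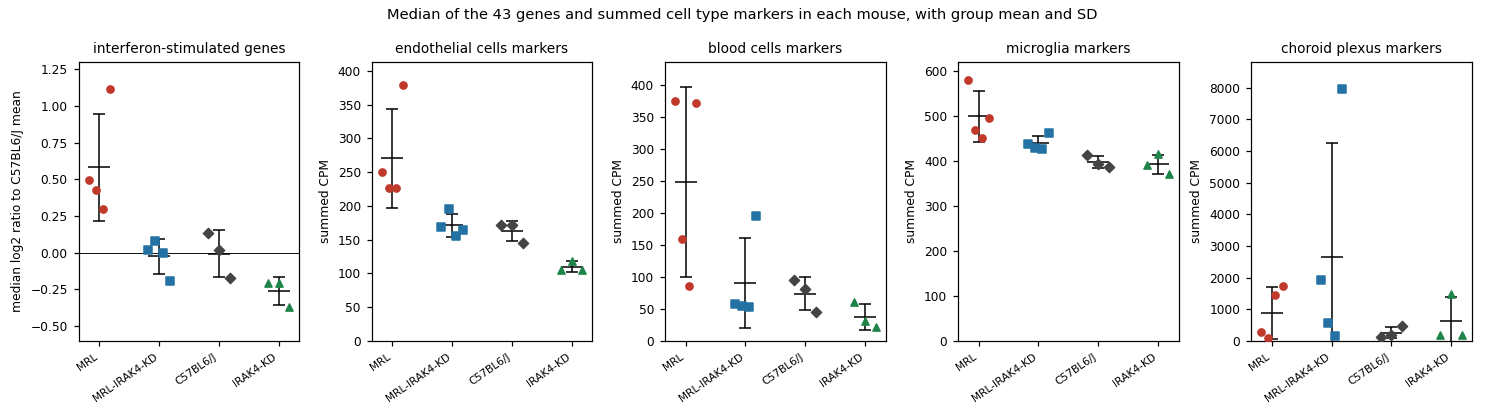
Median log2 ratio of the 43 genes to the C57BL6/J mean (left) and summed CPM of endothelial, blood cell, microglial and choroid plexus markers (right 4 panels) in each mouse (points), with the group mean and SD (bars). MRL replicate 4 is highest for the 43 genes and for endothelial markers, and MRL-IRAK4-KD replicate 4 is the point at 7953 CPM among the choroid plexus markers.

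The contrast of MRL and C57BL6/J mice asks what lpr changes with intact IRAK4, and it also holds the difference in the source of the mice. This contrast shares the 4 MRL mice with the one above, so the counts of the 2 comparisons are given side by side only. In it 41 of 43 genes had a higher mean in MRL mice, and the median log2 fold change was 0.63 (quartiles 0.37 to 1.046) against -0.0046 over all genes. With edgeR 27 were higher at unadjusted p below 0.05 (3.16% of all genes) and 0 were lower (2.39% of all genes). None passed an adjusted p of 0.05 with edgeR (lowest 0.221, for Irf7), and 0.0% of all genes did. DESeq2 called 8 of the 43, and limma-voom called 0, again without the share of all genes. For 22 genes the MRL values lay above all 3 C57BL6/J values (4.47% of all genes) and for 0 below (5.16% of all genes). Without MRL replicate 4, 19 of the 27 still passed, and the median was 0.51. Ifit3 and Ifit2 were the 2 genes with a lower mean in MRL mice. Endothelial marker sums were 226 to 380 CPM against 146 to 172 CPM in C57BL6/J mice, with 7 of 10 markers higher at unadjusted p below 0.05, and all 10 blood cell markers, 5 of 12 microglial markers and 3 of 10 oligodendrocyte markers were higher. Choroid plexus markers had a median log2 change of 1.43, with 1 of 12 higher at that level. The part of these cell types was not tested.

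Of the 5 sensors of foreign nucleic acid, 4 were higher in MRL than in MRL-IRAK4-KD mice at unadjusted p below 0.05 (5.14% of all genes). The median log2 fold change was 0.80. Ifih1 encodes MDA5, the cytosolic sensor of long double-stranded RNA (ENSMUSG00000026896.14, chr2:62595798-62646255 in mm10). Ifih1 was at 4.97, 4.98, 5.44 and 7.41 CPM in the MRL mice, at 3.22, 4.34, 2.99 and 2.59 CPM in the MRL-IRAK4-KD mice, at 3.33, 3.34 and 2.82 CPM in the C57BL6/J mice and at 2.62, 3.05 and 2.44 CPM in the IRAK4-KD mice. All 4 MRL values were above every value of the other groups. The log2 fold change from MRL-IRAK4-KD to MRL mice was 0.80 ± 0.18 (SE; unadjusted p = 0.000666, adjusted p = 0.259, edgeR), and against C57BL6/J mice 0.85 ± 0.20 (unadjusted p = 0.000819, adjusted p = 0.556). Ddx60 encodes a helicase that assists RNA sensing (ENSMUSG00000037921.15, chr8:61928087-62038244 in mm10). MRL mice held 1.69, 1.67, 1.72 and 2.14 CPM of Ddx60, MRL-IRAK4-KD mice 0.906, 1.08, 1.15 and 0.618 CPM, C57BL6/J mice 1.53, 1.09 and 0.875 CPM and IRAK4-KD mice 0.543, 0.746 and 0.879 CPM. The lowest MRL value exceeded the highest of each other group, but the first C57BL6/J mouse came near it. Against MRL-IRAK4-KD mice the MRL mice differed by 0.94 ± 0.24 (SE; unadjusted p = 0.00176, adjusted p = 0.335, edgeR) on the log2 scale, and against C57BL6/J mice 0.63 ± 0.26 (unadjusted p = 0.0323, adjusted p = 0.895).

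Ddx58, which encodes RIG-I, the sensor of RNA with a triphosphate end, differed by a log2 fold change of 0.54 ± 0.20 (SE; unadjusted p = 0.0175, adjusted p = 0.437, edgeR) from MRL-IRAK4-KD mice. Dhx58, which encodes the regulatory helicase LGP2, differed by 0.26 ± 0.18 (unadjusted p = 0.164, edgeR). Zbp1, the sensor of Z-form nucleic acid that can trigger necroptosis, had the largest fold change of the 43, chosen for description after its values were seen. Levels of Zbp1 were 0.561, 0.487, 0.370 and 5 CPM among the MRL mice, 0.163, 0.258, 0.416 and 0.110 CPM among the MRL-IRAK4-KD mice, 0.122, 0.108 and 0.207 CPM among the C57BL6/J mice and 0.297, 0.123 and 0.207 CPM among the IRAK4-KD mice. A single mouse, MRL replicate 4, was 8.91 times the next highest MRL mouse, and the other 3 MRL mice overlapped the MRL-IRAK4-KD mice. With edgeR the log2 fold change of Zbp1 against MRL-IRAK4-KD mice was 2.76 ± 0.78 (SE; unadjusted p = 0.0034, adjusted p = 0.393, edgeR), and against C57BL6/J mice 3.46 ± 0.91 (unadjusted p = 0.00202, adjusted p = 0.558). Without MRL replicate 4 the log2 fold changes were 1.01 (unadjusted p = 0.0467, adjusted p = 0.643, edgeR) and 1.71 (unadjusted p = 0.00529, adjusted p = 0.991, edgeR). Limma-voom gave 1.52 (unadjusted p = 0.0752) and 2.46 (unadjusted p = 0.046) from all 14 libraries, and DESeq2 gave no p for this gene.

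Of the 6 transcription factors and feedback genes, 5 were higher in MRL than in MRL-IRAK4-KD mice at unadjusted p below 0.05 (5.14% of all genes). The median log2 change was 0.78. Irf7, the factor that amplifies interferon alpha production, had the lowest p of the 43 genes in both comparisons of MRL mice (ENSMUSG00000025498.15, chr7:141262706-141266481 in mm10). In CPM, Irf7 read 2.73, 3.23, 3.00 and 6.02 in the MRL mice, 1.64, 1.99, 1.41 and 2.11 in the MRL-IRAK4-KD mice, 1.40, 1.13 and 1.19 in the C57BL6/J mice and 0.865, 0.963 and 0.775 in the IRAK4-KD mice. The groups were ordered without overlap from MRL through MRL-IRAK4-KD and C57BL6/J to IRAK4-KD mice. The lowest MRL-IRAK4-KD mouse, at 1.408 CPM, was barely above the highest C57BL6/J mouse, at 1.399 CPM. MRL minus MRL-IRAK4-KD came to 1.07 ± 0.24 (SE; unadjusted p = 0.00058, adjusted p = 0.246, edgeR) for Irf7 on the log2 scale, and against C57BL6/J mice 1.59 ± 0.27 (unadjusted p = 4.07e-05, adjusted p = 0.221). Without MRL replicate 4 the log2 fold change against C57BL6/J mice was 1.28 (unadjusted p = 2.16e-05, adjusted p = 0.204, edgeR).

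Irf9 (ENSMUSG00000002325.15, chr14:55603571-55610030 in mm10) and Stat2 (ENSMUSG00000040033.16, chr10:128270559-128292849 in mm10) encode the DNA-binding and the activating partner of the interferon-stimulated transcription factor. Irf9 was at 11.6, 15.8, 14.3 and 16.2 CPM in the MRL mice, at 11.4, 9.67, 9.17 and 10.35 CPM in the MRL-IRAK4-KD mice, at 11.3, 12.5 and 14.1 CPM in the C57BL6/J mice and at 11.2, 10.5 and 9.76 CPM in the IRAK4-KD mice. The 4 MRL mice lay above the 4 MRL-IRAK4-KD mice and overlapped the C57BL6/J mice. The log2 fold change from MRL-IRAK4-KD to MRL mice was 0.51 ± 0.12 (SE; unadjusted p = 0.000944, adjusted p = 0.281, edgeR), and against C57BL6/J mice 0.20 ± 0.13 (unadjusted p = 0.156, adjusted p = 0.953). MRL mice held 24.6, 27.7, 26.5 and 33.3 CPM of Stat2, MRL-IRAK4-KD mice 26.5, 25.1, 24.2 and 26.6 CPM, C57BL6/J mice 28.4, 25.8 and 27.2 CPM and IRAK4-KD mice 29.0, 26.6 and 26.5 CPM. All 4 groups overlapped at Stat2, the most highly counted of these 6 genes. Against MRL-IRAK4-KD mice the MRL mice differed by 0.13 ± 0.10 (SE; unadjusted p = 0.2, adjusted p = 0.572, edgeR) on the log2 scale, and against C57BL6/J mice 0.05 ± 0.11 (unadjusted p = 0.676, adjusted p = 1).

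Usp18 removes ISG15 from proteins and dampens the receptor (ENSMUSG00000030107.10, chr6:121245906-121270917 in mm10). Levels of Usp18 were 2.27, 1.60, 1.35 and 2.57 CPM among the MRL mice, 1.02, 1.12, 1.052 and 1.07 CPM among the MRL-IRAK4-KD mice, 1.34, 1.08 and 0.666 CPM among the C57BL6/J mice and 0.872, 0.508 and 0.762 CPM among the IRAK4-KD mice. The MRL mice were above every MRL-IRAK4-KD mouse and, by a narrow margin, above the highest C57BL6/J mouse. With edgeR the log2 fold change of Usp18 against MRL-IRAK4-KD mice was 0.87 ± 0.26 (SE; unadjusted p = 0.00487, adjusted p = 0.401, edgeR), and against C57BL6/J mice 0.92 ± 0.29 (unadjusted p = 0.00615, adjusted p = 0.693). Isg15 encodes the ubiquitin-like modifier itself (ENSMUSG00000035692.6, chr4:156199424-156200818 in mm10). In CPM, Isg15 read 1.54, 1.69, 1.39 and 2.89 in the MRL mice, 1.42, 1.18, 0.855 and 1.22 in the MRL-IRAK4-KD mice, 1.22, 1.21 and 0.909 in the C57BL6/J mice and 1.29, 0.676 and 0.771 in the IRAK4-KD mice. The lowest MRL mouse fell below the highest MRL-IRAK4-KD mouse, so those groups overlapped, while all MRL mice were above the C57BL6/J mice. MRL minus MRL-IRAK4-KD came to 0.69 ± 0.28 (SE; unadjusted p = 0.0259, adjusted p = 0.437, edgeR) for Isg15 on the log2 scale, and against C57BL6/J mice 0.76 ± 0.30 (unadjusted p = 0.0252, adjusted p = 0.885). The values without MRL replicate 4 were 0.42 (unadjusted p = 0.125, adjusted p = 0.645, edgeR) and 0.49 (unadjusted p = 0.101, adjusted p = 0.993, edgeR). Sp100, a component of nuclear bodies (ENSMUSG00000026222.16, chr1:85649988-85709998 in mm10), was read in the same way. Sp100 was at 4.71, 4.64, 3.85 and 7.76 CPM in the MRL mice, at 2.86, 3.43, 2.63 and 1.66 CPM in the MRL-IRAK4-KD mice, at 2.82, 2.59 and 2.26 CPM in the C57BL6/J mice and at 1.895, 2.13 and 1.59 CPM in the IRAK4-KD mice. Its MRL values were above all others. The log2 fold change from MRL-IRAK4-KD to MRL mice was 0.99 ± 0.24 (SE; unadjusted p = 0.00122, adjusted p = 0.32, edgeR), and against C57BL6/J mice 1.04 ± 0.27 (unadjusted p = 0.00173, adjusted p = 0.558).

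**Figure D3:**
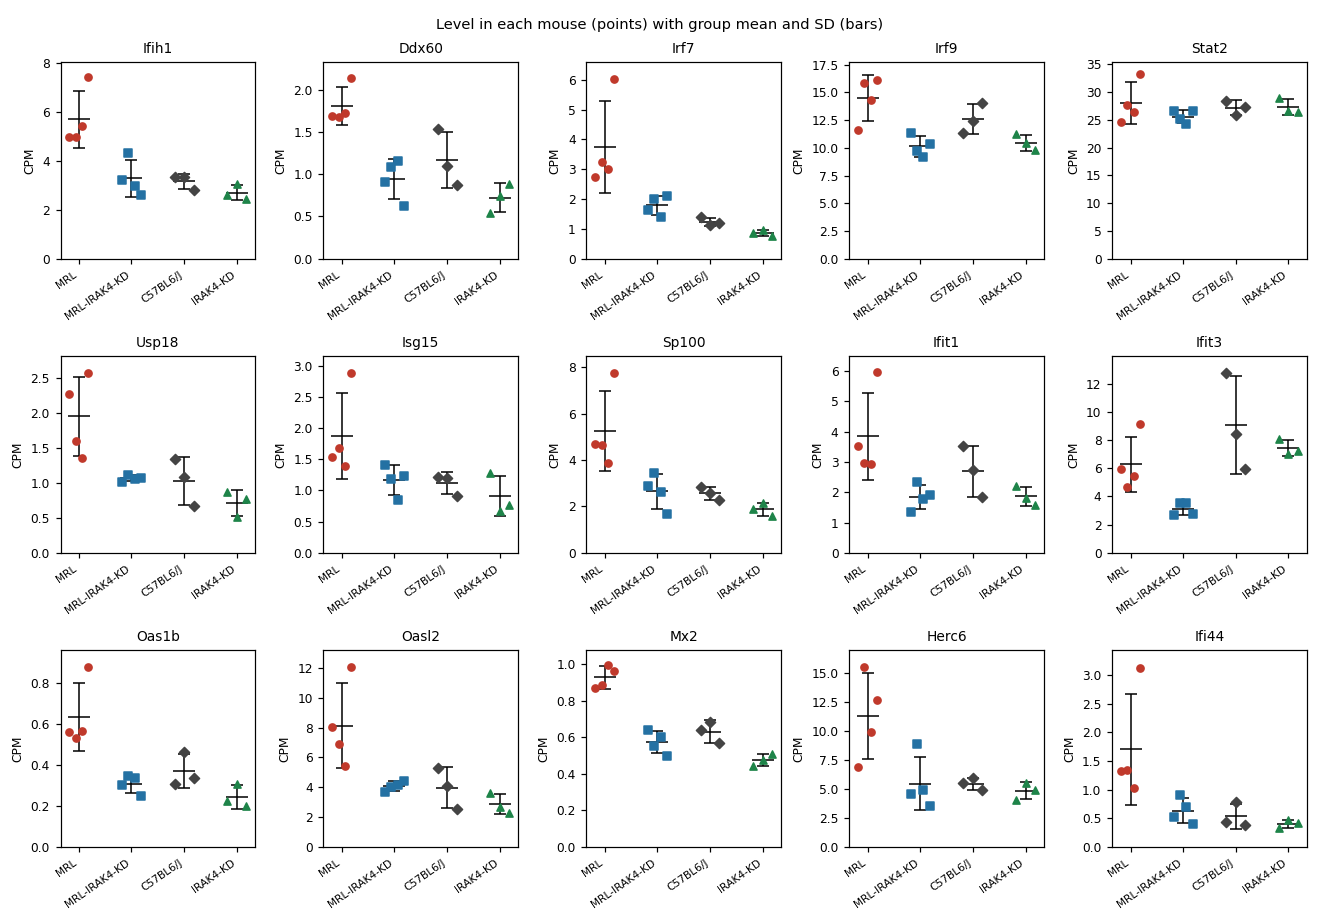
CPM of 15 interferon-stimulated genes in each mouse (points; 4 MRL, 4 MRL-IRAK4-KD, 3 C57BL6/J and 3 IRAK4-KD) with the group mean and SD (bars), each panel starting at 0 on its own scale. The MRL points lie highest in most panels, MRL replicate 4 often alone at the top, while Ifit3 is also high in the C57BL6/J and IRAK4-KD mice and Stat2 is level across groups.

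The Ifit genes encode tetratricopeptide proteins that bind viral RNA or block its translation. All 4 were higher in MRL than in MRL-IRAK4-KD mice at unadjusted p below 0.05 (5.14% of all genes), at a median log2 change of 0.87. Against C57BL6/J mice 0 of the 4 differed at that level (3.16% of all genes were higher and 2.39% lower), with a median of 0.04. Ifit1, which binds RNA lacking the cap methylation of the host (ENSMUSG00000034459.8, chr19:34640871-34650009 in mm10), had the largest difference of the family. MRL mice held 3.52, 2.97, 2.95 and 5.96 CPM of Ifit1, MRL-IRAK4-KD mice 1.35, 2.34, 1.79 and 1.9 CPM, C57BL6/J mice 3.53, 2.72 and 1.84 CPM and IRAK4-KD mice 2.21, 1.81 and 1.57 CPM. The MRL mice were above the MRL-IRAK4-KD mice, but the first C57BL6/J mouse was level with the second highest MRL mouse. Against MRL-IRAK4-KD mice the MRL mice differed by 1.06 ± 0.27 (SE; unadjusted p = 0.00149, adjusted p = 0.327, edgeR) on the log2 scale, and against C57BL6/J mice 0.51 ± 0.29 (unadjusted p = 0.0996, adjusted p = 0.931). Ifit3 (ENSMUSG00000074896.3, chr19:34583531-34588731 in mm10) stood differently. Levels of Ifit3 were 5.96, 4.64, 5.42 and 9.12 CPM among the MRL mice, 2.70, 3.50, 3.56 and 2.72 CPM among the MRL-IRAK4-KD mice, 12.8, 8.43 and 5.98 CPM among the C57BL6/J mice and 8.06, 7.03 and 7.24 CPM among the IRAK4-KD mice. The MRL-IRAK4-KD mice were the lowest group without overlap with any other, while the C57BL6/J and IRAK4-KD mice overlapped the MRL mice and had higher means. With edgeR the log2 fold change of Ifit3 against MRL-IRAK4-KD mice was 1.01 ± 0.24 (SE; unadjusted p = 0.000869, adjusted p = 0.276, edgeR), and against C57BL6/J mice -0.53 ± 0.25 (unadjusted p = 0.0561, adjusted p = 0.903). Without MRL replicate 4 the log2 fold change against C57BL6/J mice was -0.75, lower at unadjusted p below 0.05 with edgeR. The remaining MRL values then lay below all C57BL6/J values (7.33% of all genes), by a narrow margin of 5.96 against 5.98 CPM.

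Ifit2 and Ifit3b are given by mouse too, chosen after their values were seen because they are the remaining members of the family. In CPM, Ifit2 read 6.41, 5.23, 5.89 and 9.56 in the MRL mice, 3.78, 5.44, 5.20 and 2.61 in the MRL-IRAK4-KD mice, 8.31, 7.80 and 5.92 in the C57BL6/J mice and 6.69, 6.67 and 7.27 in the IRAK4-KD mice. MRL and MRL-IRAK4-KD mice overlapped at Ifit2, and all 4 MRL-IRAK4-KD mice were below the C57BL6/J and IRAK4-KD mice. MRL minus MRL-IRAK4-KD came to 0.67 ± 0.23 (SE; unadjusted p = 0.0126, adjusted p = 0.432, edgeR) for Ifit2 on the log2 scale, and against C57BL6/J mice -0.12 ± 0.25 (unadjusted p = 0.648, adjusted p = 1). Ifit3b was at 6.11, 5.54, 5.15 and 7.56 CPM in the MRL mice, at 3.69, 4.30, 4.11 and 2.65 CPM in the MRL-IRAK4-KD mice, at 7.48, 5.14 and 3.38 CPM in the C57BL6/J mice and at 6.14, 4.35 and 4.75 CPM in the IRAK4-KD mice. At Ifit3b the MRL-IRAK4-KD mice were below the MRL and IRAK4-KD mice and overlapped the C57BL6/J mice. The log2 fold change from MRL-IRAK4-KD to MRL mice was 0.73 ± 0.23 (SE; unadjusted p = 0.00771, adjusted p = 0.408, edgeR), and against C57BL6/J mice 0.19 ± 0.25 (unadjusted p = 0.456, adjusted p = 1). Reads of Ifit3 and Ifit3b are in part shared, since 31.7% of the 100-base windows of Ifit3 and 27.4% of those of Ifit3b occur in the other gene, so their separate levels are uncertain.

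The comparison of MRL-IRAK4-KD with IRAK4-KD mice, which asks what the lpr background changes when IRAK4 is kinase-dead, gave negative values for all 4 Ifit genes. Ifit3 had a log2 fold change of -1.25 ± 0.25 (SE; unadjusted p = 0.000229, adjusted p = 0.128, edgeR) and Ifit2 of -0.69 ± 0.25 (unadjusted p = 0.0151, adjusted p = 0.553, edgeR), the only 2 of the 43 that were lower at unadjusted p below 0.05 (3.45% of all genes). Ifit3b differed by -0.46 ± 0.25 (unadjusted p = 0.0845) and Ifit1 by -0.01 ± 0.29 (unadjusted p = 0.963) in the same edgeR fit. Each MRL-IRAK4-KD value lay below each IRAK4-KD value for 3 genes, Ifit2, Ifit3 and Ifit3b (4.43% of all genes). Without the library labelled IRAK4-KD replicate 3, the log2 fold changes were -1.27 (unadjusted p = 0.000859, adjusted p = 0.546, edgeR) for Ifit3 and -0.65 (unadjusted p = 0.0441, adjusted p = 0.891, edgeR) for Ifit2. DESeq2 gave an adjusted p of 0.00102 and limma-voom of 0.0477 for Ifit3 here.

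The 4 Ifit genes lie beside Fas, the gene that carries lpr, on chromosome 19. Fas spans chr19:34290666-34327772 in mm10, and Ifit2, Ifit3, Ifit3b and Ifit1 begin 222.9, 255.8, 280.2 and 313.1 kilobases beyond its end. Crossing lpr into C57BL/6 mice carries neighbouring DNA of the MRL donor strain along, and whether the Ifit genes of these mice are of donor or C57BL/6 origin was not tested. The library labelled IRAK4-KD replicate 3, which had 0 counts of the full-length Fas transcript, held 7.24 CPM of Ifit3 and 7.27 CPM of Ifit2, within 1 CPM of the other IRAK4-KD mice and above all 4 MRL-IRAK4-KD mice.

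**Figure D4:**
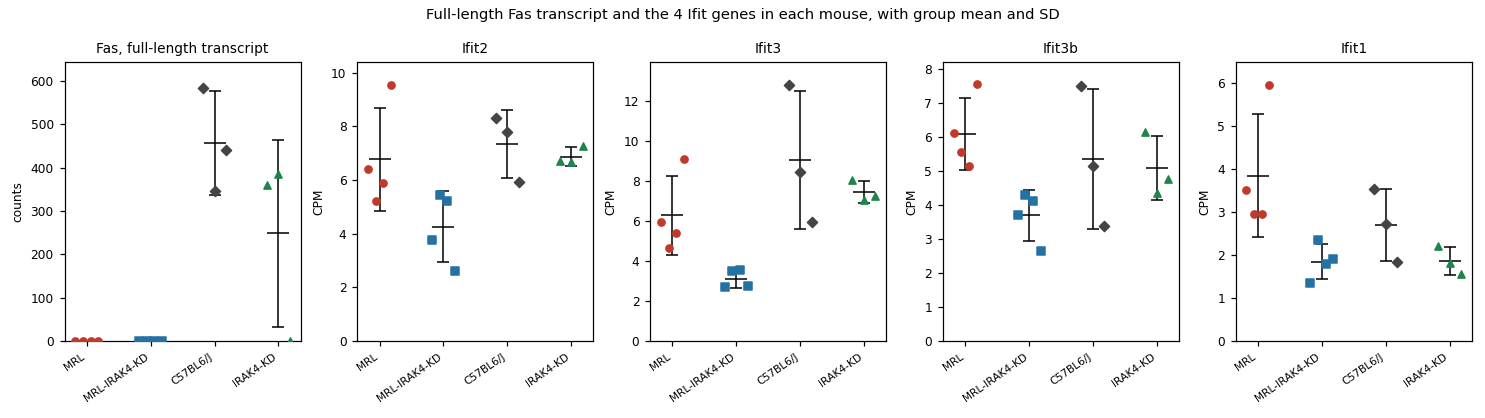
Counts of the full-length Fas transcript (left) and CPM of Ifit2, Ifit3, Ifit3b and Ifit1 (right 4 panels) in each mouse (points), with the group mean and SD (bars). The Fas transcript is at 0 in all MRL and MRL-IRAK4-KD mice, as in the library labelled IRAK4-KD replicate 3; Ifit3 is lowest in the 4 MRL-IRAK4-KD mice.

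The Oas genes encode synthetases of 2′-5′ oligoadenylate, which activates the ribonuclease RNase L, and catalytically inactive relatives. In MRL against MRL-IRAK4-KD mice 5 of 6 were higher at unadjusted p below 0.05 (5.14% of all genes), at a median log2 change of 0.94. Against C57BL6/J mice 5 of 6 were higher (3.16% of all genes), with a median of 1.07. Oas1b (ENSMUSG00000029605.16, chr5:120812635-120824163 in mm10) was low in every group. MRL mice held 0.561, 0.530, 0.566 and 0.880 CPM of Oas1b, MRL-IRAK4-KD mice 0.301, 0.348, 0.335 and 0.248 CPM, C57BL6/J mice 0.306, 0.463 and 0.337 CPM and IRAK4-KD mice 0.225, 0.308 and 0.198 CPM. The MRL values were above all others. Against MRL-IRAK4-KD mice the MRL mice differed by 1.04 ± 0.26 (SE; unadjusted p = 0.0012, adjusted p = 0.32, edgeR) on the log2 scale, and against C57BL6/J mice 0.79 ± 0.28 (unadjusted p = 0.014, adjusted p = 0.823). Oasl2 (ENSMUSG00000029561.17, chr5:114896936-114912234 in mm10) was the most abundant of the family. Levels of Oasl2 were 8.08, 6.88, 5.44 and 12.1 CPM among the MRL mice, 3.65, 4.04, 4.18 and 4.41 CPM among the MRL-IRAK4-KD mice, 5.27, 4.10 and 2.51 CPM among the C57BL6/J mice and 3.62, 2.65 and 2.31 CPM among the IRAK4-KD mice. The lowest MRL mouse was just above the highest C57BL6/J mouse and clear of the MRL-IRAK4-KD mice. With edgeR the log2 fold change of Oasl2 against MRL-IRAK4-KD mice was 1.00 ± 0.26 (SE; unadjusted p = 0.00173, adjusted p = 0.335, edgeR), and against C57BL6/J mice 1.04 ± 0.28 (unadjusted p = 0.00259, adjusted p = 0.558). Oasl1 was the member that did not pass against MRL-IRAK4-KD mice (0.71 ± 0.44, unadjusted p = 0.131, edgeR) and Oas3 the one that did not pass against C57BL6/J mice (1.06 ± 0.53, unadjusted p = 0.0651, edgeR). Of the windows of Oas1a, 40.9% occur in Oas1g too, so its level is uncertain.

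Of 10 other antiviral effectors, 5 were higher in MRL than in MRL-IRAK4-KD mice at unadjusted p below 0.05 (5.14% of all genes). They were Mx2, Rsad2, Adar, Samd9l and Rtp4, and the median log2 change over the 10 was 0.61. Mx2 belongs to a gene family of dynamin-like GTPases (ENSMUSG00000023341.15, chr16:97535308-97560900 in mm10). In CPM, Mx2 read 0.866, 0.886, 0.997 and 0.960 in the MRL mice, 0.642, 0.550, 0.600 and 0.499 in the MRL-IRAK4-KD mice, 0.642, 0.685 and 0.565 in the C57BL6/J mice and 0.441, 0.473 and 0.506 in the IRAK4-KD mice. The spread within each group was narrow, and the MRL mice were above all others. MRL minus MRL-IRAK4-KD came to 0.69 ± 0.17 (SE; unadjusted p = 0.0012, adjusted p = 0.32, edgeR) for Mx2 on the log2 scale, and against C57BL6/J mice 0.56 ± 0.19 (unadjusted p = 0.00992, adjusted p = 0.749). Rsad2, which encodes viperin, differed by 0.92 ± 0.36 (unadjusted p = 0.0235, edgeR) and Rtp4, a receptor transporter protein induced by interferon, by 0.76 ± 0.22 (unadjusted p = 0.00379, edgeR). Exons of Gm45338 on the same strand cover 13.9% of the exonic bases of Rtp4, and 9.28% of its windows occur in Gm45338.

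Adar, chosen after its values were seen because it was the most highly counted of the 43, was ordered by IRAK4 genotype. Adar was at 149, 145, 147 and 152 CPM in the MRL mice, at 125, 122, 119 and 75.03 CPM in the MRL-IRAK4-KD mice, at 146, 141 and 139 CPM in the C57BL6/J mice and at 114, 122 and 121 CPM in the IRAK4-KD mice. The 7 mice with kinase-dead IRAK4 were all below the 7 mice without it. The share of all genes that separate in this way is not given here, and the C57BL6/J mice had another source. The log2 fold change from MRL-IRAK4-KD to MRL mice was 0.43 ± 0.13 (SE; unadjusted p = 0.0053, adjusted p = 0.401, edgeR), and against C57BL6/J mice 0.06 ± 0.14 (unadjusted p = 0.659, adjusted p = 1), while IRAK4-KD mice differed from C57BL6/J mice by -0.26 (unadjusted p = 0.109, adjusted p = 1, edgeR). MRL-IRAK4-KD replicate 4 was the lowest Adar value, and without it the log2 fold change of MRL against MRL-IRAK4-KD mice was 0.29 (unadjusted p = 7.08e-05, adjusted p = 0.0505, edgeR). Exons of Chrnb2 on the opposite strand cover 16.8% of the exonic bases of Adar, and whether the counting used strand is not given in the sources used here. Mx1, Cmpk2, the exonuclease gene Isg20, Bst2 and Eif2ak2, which encodes the translation-blocking kinase PKR, did not pass in this comparison, with log2 fold changes between 0.09 and 0.82. Of these, Bst2, the tethering protein of budding virions, was high in 1 mouse of each lpr group: MRL replicate 4 held 6.08 CPM and MRL-IRAK4-KD replicate 4 held 6.12 CPM, against 1.054 to 2.406 CPM in the other 12 libraries.

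The ubiquitin ligases and ADP-ribosylation enzymes attach small modifiers to proteins. Against C57BL6/J mice all 6 (Herc6, Trim25, Trim30a, Dtx3l, Parp9 and Parp14) were higher in MRL mice at unadjusted p below 0.05 (3.16% of all genes). All 6 were without overlap (4.47% of all genes), and the median log2 change was 0.76. Against MRL-IRAK4-KD mice 5 of 6 passed (5.14% of all genes), with a median of 0.64, and Dtx3l differed by 0.25 ± 0.15 (unadjusted p = 0.115, edgeR). Herc6, the main ligase that attaches ISG15 in mice (ENSMUSG00000029798.11, chr6:57581000-57664632 in mm10), was given by mouse. MRL mice held 6.94, 15.6, 9.93 and 12.7 CPM of Herc6, MRL-IRAK4-KD mice 4.59, 8.85, 4.95 and 3.52 CPM, C57BL6/J mice 5.48, 5.93 and 4.88 CPM and IRAK4-KD mice 4.07, 5.53 and 4.89 CPM. MRL replicate 1 fell below MRL-IRAK4-KD replicate 2, so these groups overlapped, while all MRL mice were above the C57BL6/J mice. Against MRL-IRAK4-KD mice the MRL mice differed by 1.04 ± 0.28 (SE; unadjusted p = 0.00212, adjusted p = 0.335, edgeR) on the log2 scale, and against C57BL6/J mice 1.06 ± 0.30 (unadjusted p = 0.00383, adjusted p = 0.637). Of the windows of Herc6, 10.3% occur in Gm45193, which also shares exonic bases with it.

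The last 6 genes, of the Ifi group and others, had 1 of 6 higher at the unadjusted level against MRL-IRAK4-KD mice (5.14% of all genes). Against C57BL6/J mice 4 of 6 were higher (3.16% of all genes), and the medians were 0.29 and 0.71. The 1 gene was Ifi44, a cytoplasmic protein induced by interferon (ENSMUSG00000028037.13, chr3:151730922-151749960 in mm10). Levels of Ifi44 were 1.32, 1.34, 1.02 and 3.13 CPM among the MRL mice, 0.524, 0.910, 0.694 and 0.399 CPM among the MRL-IRAK4-KD mice, 0.439, 0.786 and 0.386 CPM among the C57BL6/J mice and 0.322, 0.470 and 0.413 CPM among the IRAK4-KD mice. Every MRL value was above every other value. With edgeR the log2 fold change of Ifi44 against MRL-IRAK4-KD mice was 1.43 ± 0.38 (SE; unadjusted p = 0.00201, adjusted p = 0.335, edgeR), and against C57BL6/J mice 1.67 ± 0.42 (unadjusted p = 0.00145, adjusted p = 0.558). Ifi27 and Ifi35 were the 2 genes of the 43 with a lower mean in MRL than in MRL-IRAK4-KD mice, by -0.42 ± 0.27 (unadjusted p = 0.141) and -0.02 ± 0.29 (unadjusted p = 0.949) with edgeR. Exons of Gm11626 on the opposite strand cover 16.8% of the exonic bases of Ifi35. Ifi27 was at 71.1 CPM in MRL-IRAK4-KD replicate 4, the library with the high choroid plexus markers, and between 19.2 and 33.6 CPM in the other 13. Xaf1, an antagonist of the caspase inhibitor XIAP, and Lgals3bp, a secreted glycoprotein that binds galectin-3, differed by 0.23 ± 0.20 and 0.38 ± 0.21 (unadjusted p = 0.277 and unadjusted p = 0.0924, edgeR). The library of MRL-IRAK4-KD replicate 4 also held the highest values of Bst2, Ifi35 and Xaf1 among the 14.

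**Figure D5:**
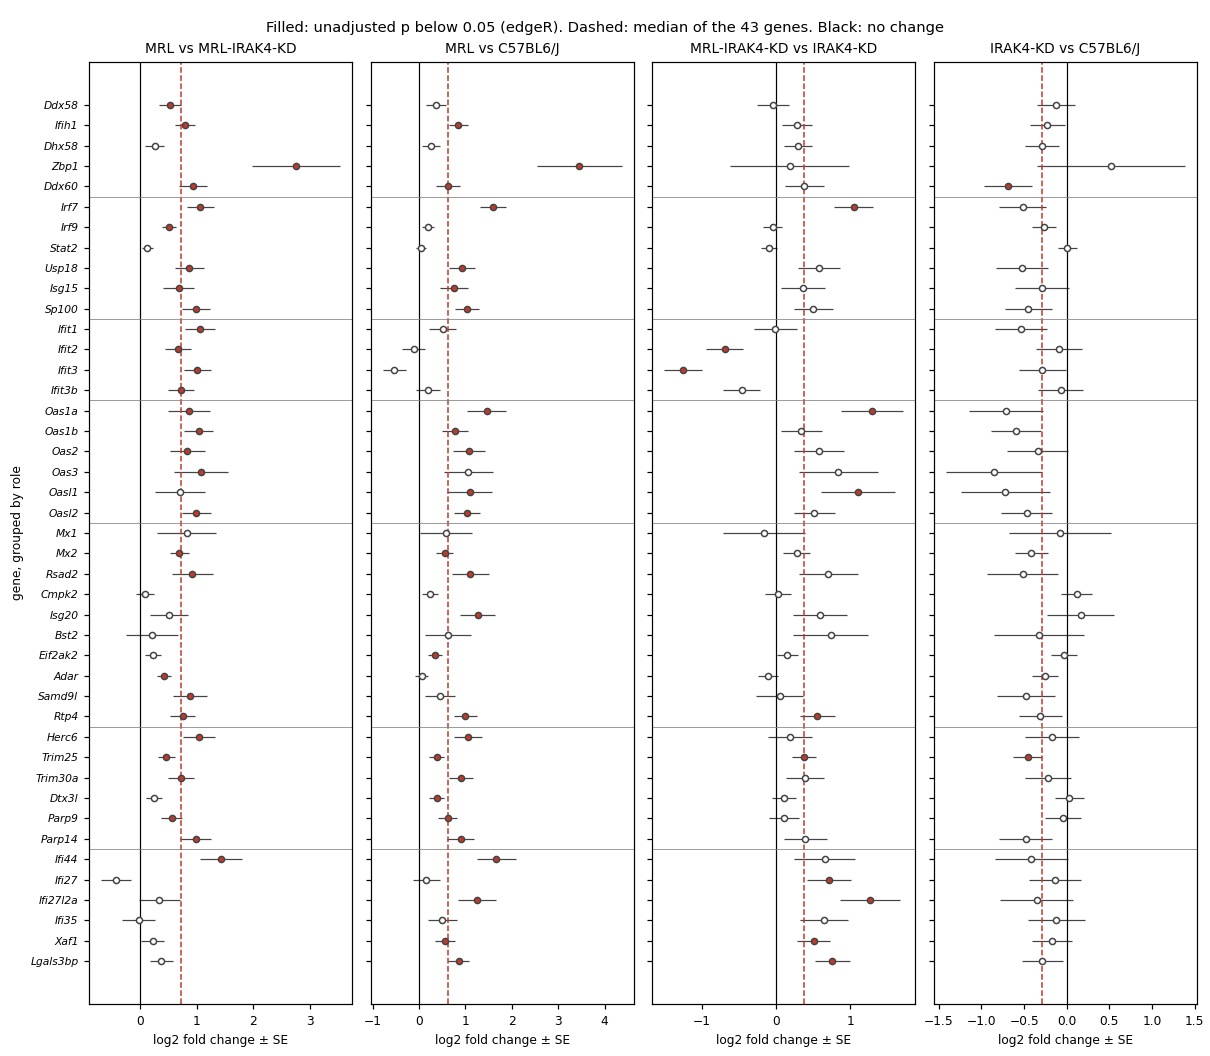
Log2 fold change (points) ± SE (lines) of each of the 43 genes, by role, in 4 comparisons, with filled points for unadjusted p below 0.05 (edgeR), a black line at 0 and a dashed line at the median of the 43 genes. Most points are right of 0 in the first 3 panels and left of it in the last, and the Ifit genes are left of 0 in the third. The kinase-dead mice are the second group named in the first panel and the first group named in the last.

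Exact permutation tests on log2(CPM + 0.1) restate the separation of the values given above. The smallest two-sided p that 4 against 4 mice allows, 0.0286, was reached by the 18 genes without overlap between MRL and MRL-IRAK4-KD mice (3.13% of all genes had no overlap in that direction). Of the 15 genes plotted by mouse 12 were chosen for a small p in this same comparison, so their exact p is a description. Isg15 and Herc6 had an exact p of 0.0571 each and Stat2 of 0.286. Against C57BL6/J mice the smallest exact p that 4 against 3 mice allows is 0.0571, and the 22 genes without overlap reached it (4.47% of all genes).

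On the IRAK4-mutant side, MRL-IRAK4-KD mice had a higher mean than IRAK4-KD mice for 34 of the 43 genes, at a median log2 change of 0.37 (quartiles 0.07 to 0.62) against 0 over all genes. With edgeR 9 were higher at unadjusted p below 0.05 (5.18% of all genes): Irf7, Oas1a, Oasl1, Rtp4, Trim25, Ifi27, Ifi27l2a, Xaf1 and Lgals3bp. None passed an adjusted p of 0.05 (lowest 0.128), against 0.0735% of all genes. DESeq2 called 2, Irf7 and Ifit3, and limma-voom 1, Ifit3, and their shares of all genes are not given here. Values did not overlap in the higher direction for 9 genes (4.31% of all genes), and without MRL-IRAK4-KD replicate 4 for 20 (7.53% of all genes). Irf7 had a log2 fold change of 1.04 ± 0.26 (SE; unadjusted p = 0.00155, adjusted p = 0.365, edgeR). Without the library labelled IRAK4-KD replicate 3 it was 0.97 (unadjusted p = 0.00922, adjusted p = 0.891, edgeR), and 4 of the 43 genes were higher at unadjusted p below 0.05. Ifi27, Oasl1 and Xaf1 no longer passed without MRL-IRAK4-KD replicate 4. Markers of other cells moved here too: at unadjusted p below 0.05, 8 of 10 endothelial, 5 of 10 oligodendrocyte, 3 of 10 astrocyte and 3 of 12 microglial markers were higher, and 5 of 12 markers of striatum and thalamus were lower. Choroid plexus markers had a median log2 change of 1.36, with 0 of 12 past that level. Without the library labelled IRAK4-KD replicate 3 the counts were 4, 2, 1 and 0 higher and 0 lower. The part of these cell types was not tested.

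Between the groups without lpr, IRAK4-KD against C57BL6/J, 38 of 43 genes had a lower mean and 5 a higher mean in IRAK4-KD mice. The kinase-dead mice were thus the lower group for most genes, as MRL-IRAK4-KD mice were below MRL mice for 41. The median log2 change was -0.29 (quartiles -0.47 to -0.12) against -0.0079 over all genes. With edgeR 0 were higher (1.66% of all genes) and 2 lower (2.13% of all genes) at unadjusted p below 0.05, namely Ddx60 at -0.69 ± 0.28 (unadjusted p = 0.0275) and Trim25, a ligase implicated in RIG-I activation, at -0.46 ± 0.17 (unadjusted p = 0.0195). The contrast of IRAK4-KD and C57BL6/J mice also holds the difference in the source of the mice. None of the 43 passed an adjusted p of 0.05 (lowest adjusted p = 1), against 0.147% of all genes, and DESeq2 and limma-voom called 0. Without IRAK4-KD replicate 1 neither gene passed the unadjusted level, and without the library labelled IRAK4-KD replicate 3 both did. Values did not overlap in the lower direction for 11 genes (5.52% of all genes), among them Irf7, Irf9, Sp100, Mx2 and Adar, and in the higher direction for 0 (5.63% of all genes). Endothelial markers were lower too, with sums of 105 to 119 CPM against 146 to 172 CPM and 6 of 10 lower at unadjusted p below 0.05. Markers of meninges and fibroblasts had 3 of 12 lower, and those of striatum and thalamus 5 of 12 higher and 1 lower. Without the library labelled IRAK4-KD replicate 3, 4 endothelial markers and 1 of meninges and fibroblasts were lower, 0 of striatum and thalamus passed, and 12 interferon-stimulated genes were lower without overlap (9.1% of all genes). The part of these cell types was not tested. The library labelled IRAK4-KD replicate 3 had the lowest value of the 14 for 17 of the 43 genes.

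Whether the effect of the kinase-dead IRAK4 differed between the lpr and the other background was tested as the interaction of the 2 mutations. The C57BL6/J mice, which had another source, enter this test. The interaction term was above 0 for 37 of 43 genes, with a median of 0.40 on the log2 scale against -0.0038 over all genes. The median was 0.20 without MRL replicate 4 and 0.26 without C57BL6/J replicate 3. The library labelled IRAK4-KD replicate 3, which went against its label at Fas, was in this fit. Without that library the term was above 0 for 41 of 43 genes, at unadjusted p below 0.05 with edgeR for Zbp1 only. With edgeR and all libraries the term was above 0 at unadjusted p below 0.05 for 1 gene, Zbp1 (1.94% of all genes), and below 0 for 0 (2.23% of all genes). None passed an adjusted p of 0.05 (lowest 0.914), a level passed by 0.00263% of all genes, and DESeq2 and limma-voom called 0 of the 43. Zbp1 had a term of 3.27 (unadjusted p = 0.0139), and 1.53 (unadjusted p = 0.0424, adjusted p = 0.971, edgeR) without MRL replicate 4. Limma-voom gave Zbp1 a term of 1.77 (unadjusted p = 0.279) and DESeq2 gave it no p, while Herc6 and Ifih1 were above 0 at unadjusted p below 0.05 with both of those tools and Ifit3 with limma-voom. A difference between the backgrounds was therefore not shown for any single gene here, and the intervals were wide: the SE of the term was 0.28 for Ifih1 and 0.57 for Ifi44.

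The genes above and around the response were read from a list of 41 pathway genes, of which 38 were tested. Ifnb1, Ifna1 and Ifna5, which encode interferons, had 0 counts in all 14 libraries, and Ifna2, Ifna4, Ifnab, Ifne and Ifnk had at most 10 counts in any library, so interferon transcripts were at or near the limit of this depth: a count of 0 allows up to 3 counts, or 0.00525 to 0.0107 CPM by library, counting error only. That limit takes 1 count as 1 read, and at 1.4 to 2.08 counts per read the true limit is higher. Of the 38 genes, 4 were higher (5.14% of all genes) and 2 lower (6.23% of all genes) in MRL than in MRL-IRAK4-KD mice at unadjusted p below 0.05 with edgeR. At adjusted p below 0.05 there were 0 (0.0972% of all genes), and the median log2 change was 0.23. The 4 that were higher were Socs3, a feedback inhibitor of JAK kinases, at a log2 change of 1.52 (unadjusted p = 0.00121), Irf1 at 0.56 (unadjusted p = 0.0368), the phosphatase gene Ptpn6 at 0.42 (unadjusted p = 0.0172) and Unc93b1, the chaperone of endosomal Toll-like receptors, at 0.23 (unadjusted p = 0.036). Rnaseh2a, at -0.32 (unadjusted p = 0.0297), and Rnaseh2c, at -0.68 (unadjusted p = 0.0312), subunits of a ribonuclease that clears RNA from DNA, were lower. Without MRL-IRAK4-KD replicate 4, Irf1 (0.40, unadjusted p = 0.0844), Rnaseh2a (-0.16, unadjusted p = 0.0878) and Rnaseh2c (-0.14, unadjusted p = 0.184) no longer passed. Socs3 was the 1 of these 6 genes that still passed without MRL replicate 4 (1.302, unadjusted p = 0.00552).

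The receptor and its kinases did not pass in this comparison: the log2 fold change was 0.28 for Ifnar1 (unadjusted p = 0.0633), -0.04 for Ifnar2 (unadjusted p = 0.729), 0.00 for Jak1 (unadjusted p = 0.993) and 0.04 for Tyk2 (unadjusted p = 0.716) with edgeR. In MRL against C57BL6/J mice 6 pathway genes were higher (3.16% of all genes) and 0 lower (2.39% of all genes) at unadjusted p below 0.05 with edgeR. In MRL-IRAK4-KD against IRAK4-KD mice 4 were higher (5.18% of all genes) and 0 lower (3.45% of all genes). In IRAK4-KD against C57BL6/J mice 0 were higher (1.66% of all genes) and 2 lower (2.13% of all genes). The interaction was above 0 for 0 genes (1.94% of all genes) and below 0 for 1 (2.23% of all genes). Without MRL replicate 4 the first comparison had 3 higher of 36 tested. Without the library labelled IRAK4-KD replicate 3 the second had 2 higher, the third 1 lower and the interaction 0. The shares of all genes in these fits are not given here.

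The 14 interferon-stimulated genes with a promoter match to GAAANNGAAA and the 17 with a promoter and no match were set side by side as a description. In MRL against MRL-IRAK4-KD mice the median log2 fold change was 0.76 with a match and 0.52 without, and 11 of 14 and 10 of 17 were higher at unadjusted p below 0.05. In MRL against C57BL6/J mice the medians were 0.63 and 0.56, with 7 of 14 and 11 of 17 higher. Among the printed stretches, Isg15 with its 3 overlapping matches and Stat2 with 1 had log2 fold changes of 0.69 and 0.13 against MRL-IRAK4-KD mice, and Ifit3 with 2 had 1.01. The absence of these letters from a window says nothing about the factor.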

How the data were processed

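Poly(A) RNA of 14 hippocampi was sequenced. According to the submitters' processing notes, the authors used HISAT2 2.1.0, SAMtools 1.9, StringTie 2.1.0, R 4.0.5 and DESeq2 1.30.1 with mm10. The deposited values are raw whole-number counts of genes and of transcripts. StringTie derives counts from coverage, and totals came to 1.4 to 2.08 counts per read. The annotation, and whether counting used strand, are not given in the sources used here, and the identifiers are those of GENCODE M21. The sources differ on the library kit. Predicted tRNA rows (0.0254 to 0.188% of counts) and spike-ins (0 counts) were left out.

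Groups came from the labels. Genes whose counts summed to 10 or more were fitted in 1 model of the 4 groups with edgeR 4.0.16 (R 4.3.3, TMM, robust quasi-likelihood), and p-values were adjusted over 38070 genes by the Benjamini-Hochberg method. The scripts were tested on simulated data. DESeq2 1.42.0, limma 3.58.1 (voom), other scalings and filters, libraries left out and a replicate block were alternatives, and those for marker and pathway lists and for groups without overlap were chosen after seeing the data. Values by mouse were given for Irf7, Irf9, Stat2, Usp18 and Isg15 and for the 12 genes with the smallest p in MRL against MRL-IRAK4-KD, and others named are said to be chosen later or stand in counts. No 2 libraries of the same group were duplicates (lowest chi-square per degree of freedom 65.5), and pairs from different groups were not checked in this way. The members, their groups and the marker and pathway lists were chosen with earlier results of these data known. A gene of the pathway list and a lymphocyte marker are not reported here, and counts over those lists leave them out.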

Additional observations from a re-analysis of the deposited data

Results flagged for a closer look

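Among 86 groups of 4 mice (43 genes in MRL and in MRL-IRAK4-KD mice), 11 held 1 library far from the other 3 by Dixon's criterion, which chance meets in about 1 of 20 groups. The 43 genes were read in the same mice, so the groups are not independent and the 11 cannot be weighed against that rate. MRL replicate 4 was the high library in 6: Zbp1 at 5 CPM (next 0.561), Irf7 at 6.02 (next 3.23), Ifi44 at 3.13 (next 1.34), Bst2 at 6.08 (next 2.41), Ddx60 at 2.14 (next 1.72) and Oas1b at 0.880 (next 0.566). Of these, Zbp1 and Bst2 were the genes in which that mouse was over 2 times the next and the other 3 MRL mice overlapped the MRL-IRAK4-KD mice.

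The library apart in 4 was MRL-IRAK4-KD replicate 4. It was high for Isg20 at 0.773 CPM (next 0.498) and Bst2 at 6.12 (next 1.97), and low for Adar at 75.03 (next 119) and Trim25 at 4.32 (next 5.97). MRL-IRAK4-KD replicate 3 was low for Mx1, at 0.0965 CPM (next 0.215). The groups of 3 mice are too small for this criterion.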

How the results depend on the processing

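The direction of the median of the 43 genes was the same in every alternative run in MRL against MRL-IRAK4-KD mice (0.48 to 0.83) and in MRL against C57BL6/J mice (0.50 to 0.82). The cause of the differences below was not tested. Adjusted calls depended on the tool, and the share of all genes called by DESeq2 and limma-voom is not given here. DESeq2 called 13 of the 43 in MRL against MRL-IRAK4-KD, 8 in MRL against C57BL6/J and 2 in MRL-IRAK4-KD against IRAK4-KD mice, and limma-voom called 5, 0 and 1. Irf7 in MRL against C57BL6/J mice had an adjusted p of 0.0399 in edgeR without MRL-IRAK4-KD replicate 4, and between 5.32e-06 and 0.867 over its alternatives.

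Leaving out 1 library gave 0 to 1 calls in MRL against C57BL6/J mice, and 0 to 1 genes lower there. In MRL against MRL-IRAK4-KD it gave 21 to 34 higher. For MRL-IRAK4-KD against IRAK4-KD it gave 4 to 11 genes higher and 2 to 3 lower, for IRAK4-KD against C57BL6/J 0 to 5 lower, and for the interaction 1 to 4 above 0. Without both IRAK4-KD replicate 3 and MRL-IRAK4-KD replicate 4, MRL against C57BL6/J had 1 call, MRL-IRAK4-KD against IRAK4-KD 5 higher and 1 lower, IRAK4-KD against C57BL6/J 4 lower and the interaction 0. Without both MRL replicate 4 and MRL-IRAK4-KD replicate 4, chosen after seeing the data, the counts were 19 higher in MRL against MRL-IRAK4-KD, 1 call and 1 lower in MRL against C57BL6/J, 2 calls and 12 higher in MRL-IRAK4-KD against IRAK4-KD and 10 lower in IRAK4-KD against C57BL6/J mice. IRAK4-KD against C57BL6/J had 4 lower with DESeq2 and 5 with limma-voom, and the interaction had 2 and 3 above 0. Library sizes without TMM factors gave 1 lower in MRL against C57BL6/J mice.

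With the replicate number as a block, a pairing that the labels do not state, 31 genes were higher in MRL against MRL-IRAK4-KD mice and 24 against C57BL6/J mice, where 1 was lower. The block left 5 higher in MRL-IRAK4-KD against IRAK4-KD and 4 lower in IRAK4-KD against C57BL6/J mice, and 0 of the 43 were called at adjusted p below 0.05 in any of the 5 comparisons, as without the block. Deviations of same-numbered libraries correlated at -0.0992 to 0.108, and 5 of 14 libraries correlated best with their own number. Stat2 in MRL against C57BL6/J mice changed sign: -0.016 without TMM factors, -0.013 with the block, -0.034 to 0.115 with 1 library left out (lowest without MRL replicate 4) and -0.041 without both replicate 4 libraries.

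Depth limited the lowest genes, with 21 counts as the lowest of any library for Oas3.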
